A study of Mus musculus with 14 samples.

Results

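The comparison described here set β-catenin ΔGSK cells against parental KMF cells, over all genes and in both directions. Its members are 6 samples of the 14 in the series, 3 of each line, taken by their labels. KMF is a mouse ovarian cancer line recovered from the ascites of C57Bl6 mice carrying ID8 tumors, and its spontaneous gains include Myc and the FAK gene. The β-catenin ΔGSK cells were not made from KMF directly. They derive from KT13, a clone of KMF in which CRISPR/Cas9 disrupted exon 4 of Ptk2 (FAK KO), and this clone was infected with a retrovirus carrying a β-catenin that lacks the regulatory sites phosphorylated by GSK3β together with GFP, followed by drug selection and flow sorting. Both lines were grown for 5 days in suspension as tumorspheres in serum-free medium. The parental samples carry neither the Ptk2 edits nor a vector, so loss of FAK, the history of the clone, the selection and active β-catenin cannot be told apart in this comparison. For that reason the level in the 3 FAK KO samples, the line between the 2 compared here, stands beside many of the values. A change printed without it may already be present in the clone.

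β-catenin, encoded by Ctnnb1, works in cell junctions and as a co-activator of TCF and LEF transcription factors. Without a Wnt signal a complex of Apc, Axin and GSK3β phosphorylates its amino terminus and the protein is degraded, and without those phosphorylation sites it escapes this control. Its targets include Axin2, Nkd1, Rnf43 and Notum, which restrain the Wnt pathway. FAK is a tyrosine kinase of focal adhesions, the sites where integrins join the matrix to the cytoskeleton.

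The region of mouse Ctnnb1 that GSK3β acts on is shown because the residues mutated in the ΔGSK form lie in it. It lies in exon 3 of the GENCODE transcript Ctnnb1-201 (GRCm38, chr9:120950587-120950658, plus strand), codons 27 to 50, with codons 33, 37 and 41, the GSK3β sites, in capitals. The inserted construct itself was not analysed here.
Ctnnb1: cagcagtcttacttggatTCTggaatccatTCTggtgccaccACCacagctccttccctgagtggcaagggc

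TCF factors bind a core that was searched as CTTTGAT or CTTTGAA on both strands in the RefSeq promoters (GRCm38.p6), which run from 250 bases before to 50 after each start. Of 32851 promoters of this length, 8.65% held it. Of the 12 largest rises described further on, 9 had a promoter in the table and 3 of these genes held the core, and of the 12 largest falls 7 had a promoter and 1 held it. The promoters of 3 genes that the results turn on are printed. Those are Axin2 (chr11:108920099-108920398, plus strand), which rose and has no match in this window, Hdc (chr2:126618629-126618928, minus strand), which rose and has 1 match, and Bgn (chrX:73483351-73483650, plus strand), which fell and has 1 match. Capitals mark the core, and each sequence is written 5′ to 3′ on the strand of its gene.
Axin2: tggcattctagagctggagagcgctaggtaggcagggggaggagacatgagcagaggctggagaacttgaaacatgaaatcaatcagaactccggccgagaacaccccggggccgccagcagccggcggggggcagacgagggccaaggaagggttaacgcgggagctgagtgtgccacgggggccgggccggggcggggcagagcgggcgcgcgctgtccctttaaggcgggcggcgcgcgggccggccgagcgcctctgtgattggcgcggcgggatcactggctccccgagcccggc
Hdc: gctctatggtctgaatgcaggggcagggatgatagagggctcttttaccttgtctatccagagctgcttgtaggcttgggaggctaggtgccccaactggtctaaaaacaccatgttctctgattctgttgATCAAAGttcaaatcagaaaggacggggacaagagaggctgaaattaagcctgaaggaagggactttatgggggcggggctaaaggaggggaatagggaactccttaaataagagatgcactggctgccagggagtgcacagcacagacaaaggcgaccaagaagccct
Bgn: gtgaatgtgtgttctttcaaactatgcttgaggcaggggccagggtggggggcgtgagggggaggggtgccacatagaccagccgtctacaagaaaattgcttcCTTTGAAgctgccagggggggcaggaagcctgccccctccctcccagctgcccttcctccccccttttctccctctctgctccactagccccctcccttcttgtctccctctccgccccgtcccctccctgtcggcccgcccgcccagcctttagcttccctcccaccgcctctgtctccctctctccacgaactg

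Levels are FPKM (fragments per kilobase of gene, scaled to library size), so they can be compared between genes. Between 25390558 and 35289859 fragments were counted on genes in each of these 6 libraries. Libraries of the same line correlated at 0.990 to 0.996 across genes, and those of different lines at 0.885 to 0.896. Of 35275 genes in the table, 11902 had a mean above 1 FPKM in at least 1 of the 2 lines and were tested with limma on log2(FPKM + 0.1). A log2 fold change below is β-catenin ΔGSK minus KMF on that scale, which understates changes of weakly expressed genes. Where a named gene loses its call with a pseudocount of 1 FPKM, or after subtracting the median of its chromosome (chromosome centring), the value is given beside it. Calls required a Benjamini-Hochberg adjusted p under 0.05, a log2 fold change of at least 1 in either direction and a mean above 1 FPKM in the line with the higher level. By this rule 709 genes rose in β-catenin ΔGSK cells, 5.96% of those tested, and 853 fell, 7.17%. Without the fold limit 2989 genes were higher (25.1%) and 3787 lower (31.8%). The 3 values of a line did not overlap those of the other in 64.3% of all tested genes and in 1558 of the 1562 called genes. The median log2 fold change of all tested genes was -0.05. In size, 143 rises and 143 falls reached 3 on the log2 scale, and 284 of the genes that rose had a KMF mean under 1 FPKM. These shares are the background for every count of list members below.

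**Figure D1:**
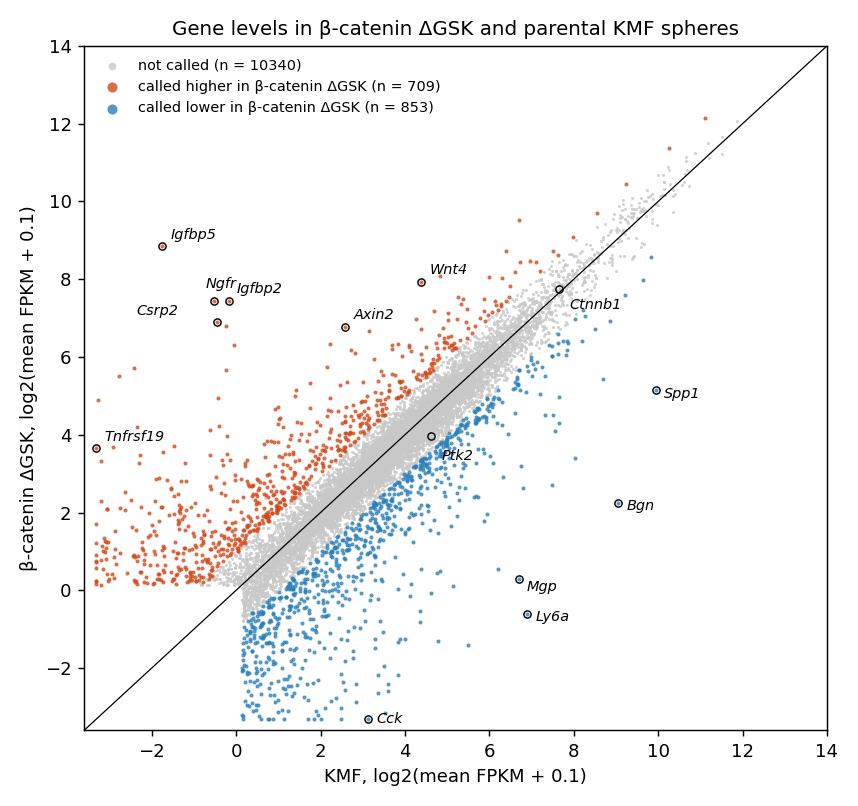
Each point is a tested gene, with log2(mean FPKM + 0.1) of 3 KMF samples on the horizontal axis and of 3 β-catenin ΔGSK samples on the vertical axis, and the line marks equal levels. The 709 genes called higher are orange and the 853 called lower are blue, and black circles mark genes described in the text. Among the circled genes Igfbp5 lies farthest above the line and Ly6a farthest below it.

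Ptk2, the gene edited in the clone (ENSMUSG00000022607, chromosome 15, 73205105 to 73423191, minus strand), was at 24.8, 24.2 and 23.9 FPKM in KMF and 15.4, 15.9 and 15.1 FPKM in β-catenin ΔGSK samples. All 3 values lay below those of KMF. On the log2 scale the difference was -0.65 (standard error 0.06, adjusted p = 3.32e-05 from limma), which is short of the fold limit. FAK KO samples were at 20.5, 17.6 and 18.9 FPKM. Fragments from anywhere in the gene enter these values, and the edits are not read. Ptk2b encodes Pyk2, the relative of FAK. It was at 6.47, 6.1 and 5.03 FPKM in KMF and 14.6, 16 and 18.6 FPKM in β-catenin ΔGSK samples, all above KMF, and it rose by 1.47 (standard error 0.12, adjusted p = 1.17e-05 from limma).

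Ctnnb1 (ENSMUSG00000006932, chromosome 9, 120929216 to 120960507, plus strand) was at 197, 195 and 207 FPKM in KMF, 207, 212 and 223 FPKM in β-catenin ΔGSK and 148, 139.5 and 146 FPKM in FAK KO samples. Its level in β-catenin ΔGSK cells was close to that of KMF, with a log2 difference of 0.10 (standard error 0.07, adjusted p = 0.228 from limma). Against the clone the cells were made from, in a fit over the 3 lines, Ctnnb1 was higher by 0.57 (adjusted p = 1.43e-05 from limma). Whether fragments of the construct were counted in this gene was not tested. Myc, the growth regulator on a gained region, was at 53.9, 55.3 and 43.5 FPKM in KMF and 59.4, 66.7 and 62.2 FPKM in β-catenin ΔGSK samples. These values did not overlap, and the log2 difference was 0.31 (adjusted p = 0.0257 from limma).

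Most of the Wnt target genes that these cells express rose. Of 30 listed target and feedback genes 16 were expressed enough to be tested, 9 of them rose and 3 fell, and their median log2 fold change was 1.13 against -0.05 for all tested genes. Axin2, the scaffold that limits β-catenin, was at 6.11, 6.0 and 5.54 FPKM in KMF, 0.819, 0.81 and 0.839 FPKM in FAK KO samples and 102, 112 and 114 FPKM in β-catenin ΔGSK samples. The 3 lines were fully separated, with FAK KO lowest. Axin2 (ENSMUSG00000000142, chromosome 11, 108920349 to 108950783) rose by 4.20 over KMF (standard error 0.07, adjusted p = 2.43e-09 from limma) and by 6.89 over FAK KO (adjusted p = 1.09e-12 in the fit over 3 lines with limma). An antisense gene, Gm11670, lies within it and moved with it. Strand in the counting is not stated, so whether the 2 can be told apart is unknown.

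Nkd1, which binds Dishevelled and dampens the pathway, was at 0.016, 0.0083 and 0 FPKM in KMF and 9.31, 10.7 and 9.69 FPKM in β-catenin ΔGSK samples. Tnfrsf19, a receptor of the TNF family known as Troy, was listed at 0 in all 3 KMF samples and at 13.7, 11.3 and 12.4 FPKM in β-catenin ΔGSK samples. Both genes were near 0 in FAK KO samples too, with means of 0.0142 FPKM for Nkd1 and 0.0158 FPKM for Tnfrsf19. Rnf43, a ubiquitin ligase that removes Frizzled receptors, went from 6.52, 7.38 and 5.58 FPKM to 68.8, 71.6 and 75.7 FPKM. It rose by 3.46 (standard error 0.10, adjusted p = 3.70e-08 from limma). Lgr5, the R-spondin receptor of stem cells, was at 0.725, 0.568 and 0.55 FPKM in KMF, 0.104, 0.080 and 0.0671 FPKM in FAK KO samples and 7.58, 7.07 and 7.66 FPKM in β-catenin ΔGSK samples. It rose by 3.41 (adjusted p = 1.16e-07 from limma). Notum, Apcdd1, Znrf3 and Cd44 also rose, by 3.12, 1.42, 1.15 and 1.12. Ccnd1 did not, at 101 ± 0.538 FPKM in KMF and 68.9 ± 2.11 FPKM in β-catenin ΔGSK samples (SD, n = 3 each).

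The 3 target genes that fell were Bmp4, a BMP ligand, Ephb3, an ephrin receptor, and Sox9, a transcription factor. Bmp4 was at 13.2, 14.8 and 16.3 FPKM in KMF and 4.1, 5.0 and 3.64 FPKM in β-catenin ΔGSK samples, a change of -1.78. Sox9 went from 45.1, 45.2 and 31.3 FPKM to 17.8, 19.3 and 20.2 FPKM, with no overlap and a change of -1.06 (adjusted p = 1.97e-04 from limma). Its call rests on the fold limit, since without KMF replicate 1 or 2 the change was -0.98. Ephb3 changed by -1.09, and by -0.95 with chromosome centring, where it was not called. The 14 members not tested were under 1 FPKM in both lines, among them Sp5, at 0.0536 ± 0.0231 FPKM and 0.433 ± 0.113 FPKM (SD, n = 3 each). Lef1, also untested, went the other way, from 0.128 ± 0.0287 FPKM to 0.00359 ± 0.00622 FPKM (SD, n = 3 each).

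Among Wnt ligands 11 of 23 were tested, 5 rose and 3 fell, and the median was 0.58, which turned to -0.10 without the filter on FPKM. Wnt4, a ligand of the female reproductive tract, was at 20.4, 20.8 and 20.8 FPKM in KMF, 13, 14.2 and 14.2 FPKM in FAK KO samples and 241, 239 and 256 FPKM in β-catenin ΔGSK samples. It rose by 3.56 (standard error 0.06, adjusted p = 2.41e-09 from limma). Wnt5a, which acts mostly without β-catenin, went from 1.85, 1.75 and 2.08 FPKM to 20.3, 19.6 and 18.3 FPKM. It lay between these levels in FAK KO samples, at 7.27, 7.66 and 7.4 FPKM. Wnt5b, Wnt11 and Wnt10a rose by 2.43, 1.88 and 1.38. Wnt11 was lower in FAK KO than in KMF samples, at 6.78 ± 0.772 against 12.7 ± 1.33 FPKM (SD, n = 3 each). Wnt1, Wnt10b and Wnt7b, ligands known to stabilise β-catenin, changed by -2.48, -2.40 and -2.23. Wnt10b was at 3.25, 2.43 and 2.9 FPKM in KMF and 0.459, 0.407 and 0.504 FPKM in β-catenin ΔGSK samples. All 3 of these ligands were low, with KMF means from 1.72 FPKM for Wnt1 to 5.13 FPKM for Wnt7b.

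Of 16 tested receptors and secreted inhibitors 2 rose and 4 fell. Fzd4, a Frizzled receptor, rose from 2.53, 2.8 and 2.3 FPKM to 10.4, 9.79 and 9.54 FPKM, and Ror1, a receptor of Wnt5a, by 1.01. The Frizzled genes Fzd9 and Fzd1 changed by -3.33 and -1.42. Porcn and Wls, which acylate and carry Wnt proteins out of the cell, changed by -1.22 and -1.10. Neither was called in every alternative, with Porcn at -0.97 with a pseudocount of 1 FPKM and Wls at -0.82 with chromosome centring. The Ror1 call is close to the fold limit and was lost in 4 of the alternatives, at values from 0.81 to 0.99. In the complex that destroys or carries β-catenin, all 26 genes were tested, 2 rose and 1 fell, and the median was 0.02. Pygo1, a co-activator, and Tle1, a co-repressor, rose by 1.64 and 1.45. Tcf7l1, a TCF factor that mostly represses, was at 19.2, 19 and 14.6 FPKM in KMF and 6.82, 7.16 and 7.13 FPKM in β-catenin ΔGSK samples, a fall of 1.30. Apc, Axin1 and Gsk3b were not called, with log2 differences of 0.32, -0.24 and 0.26.

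**Figure D2:**
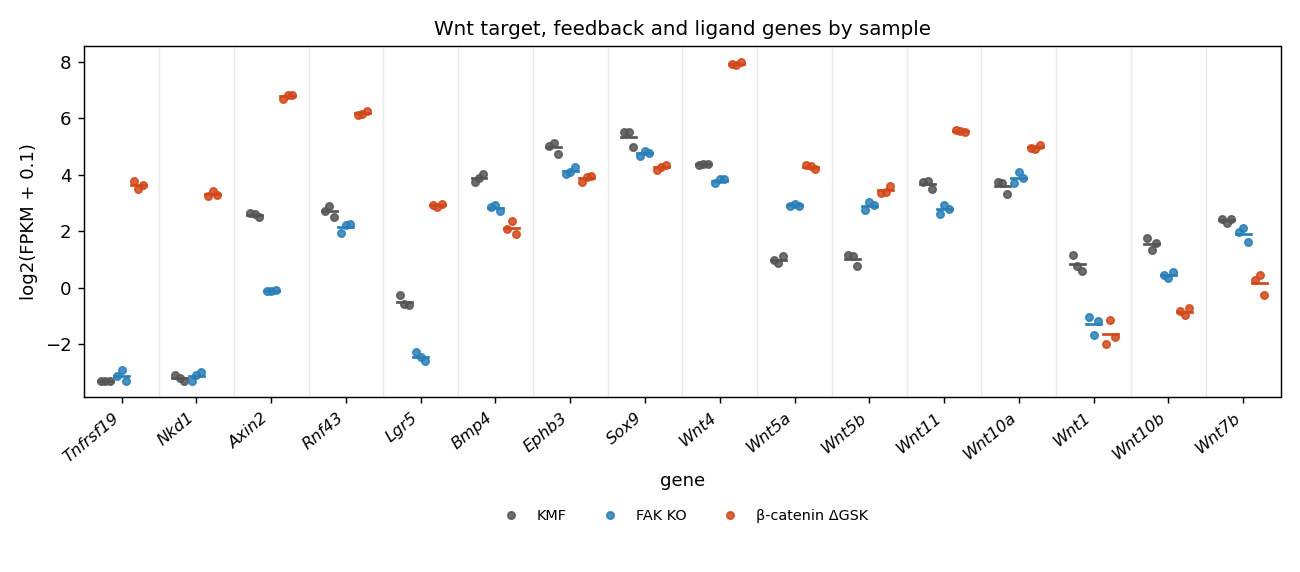
Each point is a sample, with log2(FPKM + 0.1) on the vertical axis, for the Wnt target, feedback and ligand genes called with the largest changes in each direction, and short lines are means of 3 samples in KMF, FAK KO and β-catenin ΔGSK cells. Axin2, Rnf43, Lgr5 and Wnt4 were higher in β-catenin ΔGSK than in both other lines, whereas Wnt1 was low in FAK KO and β-catenin ΔGSK samples alike.

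The largest rise was that of Igfbp5 (ENSMUSG00000026185, chromosome 1, 72857932 to 72874884), a secreted protein that binds insulin-like growth factors. It was at 0.115, 0.209 and 0.269 FPKM in KMF, 0.0885, 0.0319 and 0.0476 FPKM in FAK KO samples and 459, 460.3 and 461 FPKM in β-catenin ΔGSK samples. The gene was thus barely present in KMF and among the abundant genes in β-catenin ΔGSK cells. It rose by 10.63 on the log2 scale (standard error 0.17, adjusted p = 2.13e-09 from limma). Its neighbour Igfbp2 (chromosome 1, 72824503 to 72852474), another binding protein, was at 1.0, 0.658 and 0.694 FPKM in KMF, 9.48, 13.7 and 11.5 FPKM in FAK KO samples and 158, 168 and 194 FPKM in β-catenin ΔGSK samples. It was already higher in FAK KO than in KMF, by 3.73, and higher again in β-catenin ΔGSK than in FAK KO, by 3.90 (adjusted p = 5.55e-08 and 1.35e-08 in the fit over 3 lines with limma). The gap between both genes is 5.5 kb.

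The IGF pathway was divided, with 4 of 15 tested members higher and 4 lower. Pappa, a protease that cleaves binding proteins, rose from 0.0499, 0.0909 and 0.0591 FPKM to 1.31, 1.3 and 1.15 FPKM, and Igfbp3 rose by 1.74. Both were already above KMF in FAK KO samples, with means of 0.921 FPKM for Pappa and 3.41 FPKM for Igfbp3. From FAK KO, β-catenin ΔGSK samples differed by 0.40 and -0.88 (adjusted p = 0.0773 and 0.013 in the fit over 3 lines with limma). Igfbp7 went from 211, 206 and 182 FPKM down to 32, 35.1 and 27.3 FPKM. It fell by 2.67 (adjusted p = 1.24e-07 from limma). Htra1, a secreted protease, and Stc2, an inhibitor of Pappa, changed by -1.47 and -2.14, and Igfbp4 by -1.38. Stc2 was already low in FAK KO samples, with means of 0.21 FPKM there and 0.298 FPKM in β-catenin ΔGSK samples. The calls of Igfbp3 and Igfbp4 were lost with a pseudocount of 1 FPKM, at 0.91 and -0.64. The receptor Igf1r was not called, at 12.9 ± 1.82 FPKM in KMF and 21.2 ± 2.33 FPKM in β-catenin ΔGSK samples (SD, n = 3 each). The ligands Igf1 and Igf2 were under 1 FPKM in both lines.

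The other largest rises were Stra6, H2-Q1, Tmem255a, Ngfr, Csrp2, Ndrg2, Gng11 and Hdc, besides Tnfrsf19 and Nkd1. Stra6, the cell surface receptor for retinol-binding protein, was at 0.0224, 0.0582 and 0.0553 FPKM in KMF and 40.9, 47.7 and 48.5 FPKM in β-catenin ΔGSK samples. Ngfr, the p75 neurotrophin receptor, was at 0.429, 0.894 and 0.452 FPKM in KMF and 176, 177 and 164 FPKM in β-catenin ΔGSK samples. Neither was high in FAK KO samples, with means of 0.232 FPKM for Stra6 and 2.0 FPKM for Ngfr. Csrp2, a LIM protein of muscle, was at 0.601, 0.699 and 0.582 FPKM in KMF and 119.7, 114 and 122 FPKM in β-catenin ΔGSK samples, a change of 7.35 with the small standard error of 0.09. Ndrg2 rose by 7.09 and Gng11, a G protein γ subunit, by 6.69. Hdc makes histamine from histidine, and it was at 0.0838, 0.151 and 0.0564 FPKM in KMF, 0.853, 1.31 and 1.06 FPKM in FAK KO samples and 16.3, 16.9 and 21.2 FPKM in β-catenin ΔGSK samples. Tmem255a showed the same order, at means of 0.0883, 3.99 and 52.3 FPKM. H2-Q1, a nonclassical MHC class I gene, was at 0, 0.0125 and 0 FPKM in KMF and 29, 28.7 and 30.5 FPKM in β-catenin ΔGSK samples, and was listed at 0 in all 3 FAK KO samples. The H2-Q genes are similar copies, and fragments can be assigned to the wrong copy, so the H2-Q1 value is uncertain.

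The largest falls were Ly6a, Col3a1, Bgn, Gpr20, Cck, Mgp, Saa3, Tnnt2, Fmo1, Thbd, Ly6c1 and Rbp7. Ly6a, the surface antigen Sca-1, was at 108, 111 and 137 FPKM in KMF, 8.87, 8.63 and 7.22 FPKM in FAK KO samples and 0.553, 0.66 and 0.463 FPKM in β-catenin ΔGSK samples. It fell by 7.50 (standard error 0.13, adjusted p = 2.41e-09 from limma). Ly6c1, from the same cluster, went from 9.74, 13.5 and 12.5 FPKM to 0.0835, 0.14 and 0.0403 FPKM. Genes of the Ly6 family resemble each other, so the values of Ly6a and Ly6c1 are uncertain. Cck, the hormone cholecystokinin, was at 8.84, 7.37 and 9.47 FPKM in KMF and 24, 26.4 and 21.3 FPKM in FAK KO samples and listed at 0 in all 3 β-catenin ΔGSK samples. Cck was thus higher in FAK KO than in KMF, by 1.47 (adjusted p = 4.11e-06 in the fit over 3 lines with limma). Mgp, an inhibitor of calcification, was at 94.7, 94.2 and 121 FPKM in KMF, 97.4, 89.5 and 82.5 FPKM in FAK KO samples and 1.0, 1.12 and 1.25 FPKM in β-catenin ΔGSK samples. Its levels in KMF and FAK KO differed by -0.20 (adjusted p = 0.167) and those in β-catenin ΔGSK and FAK KO by -6.20 (adjusted p = 3.03e-11, both in the fit over 3 lines with limma). Fmo1, a flavin monooxygenase, had the same pattern, with means of 10.1 FPKM in KMF, 8.25 FPKM in FAK KO samples and 0.0599 FPKM in β-catenin ΔGSK samples. Saa3, an acute-phase protein, Thbd, the thrombin receptor thrombomodulin, and Tnnt2, cardiac troponin T, changed by -6.24, -6.03 and -6.09. Rbp7, which binds retinol, and Gpr20, an orphan receptor, changed by -5.79 and -6.69. These 5 genes also differed between FAK KO and KMF, from -1.47 for Gpr20 to -4.08 for Rbp7 on the log2 scale (adjusted p = 4.46e-05 and 1.54e-06 in the fit over 3 lines with limma).

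Many matrix genes fell. Of 18 tested collagen genes 9 fell and 2 rose, and the median was -0.93. Col3a1, a fibrillar collagen, was at 44.5, 39 and 51 FPKM in KMF, 9.12, 6.16 and 6.68 FPKM in FAK KO samples and 0.247, 0.29 and 0.293 FPKM in β-catenin ΔGSK samples. It fell by 6.89 (standard error 0.12, adjusted p = 2.41e-09 from limma). Col15a1, a collagen beneath basement membranes, was at 177, 189.6 and 167 FPKM in KMF and 6.47, 8.18 and 4.54 FPKM in β-catenin ΔGSK samples. In FAK KO samples it stood at 188, 206 and 191 FPKM, near the KMF level (difference 0.14, adjusted p = 0.504 in the fit over 3 lines with limma). Col5a1, Col5a2 and Col6a3 changed by -4.81, -3.74 and -3.54. Col5a2, which neighbours Col3a1, was already low in FAK KO samples, at 0.47 ± 0.0941 FPKM against 6.82 ± 1.36 FPKM in KMF and 0.421 ± 0.106 FPKM in β-catenin ΔGSK samples (SD, n = 3 each). Col12a1, a collagen that decorates fibrils, went the other way, from 0.0598, 0.0871 and 0.177 FPKM to 4.41, 4.82 and 3.65 FPKM, a rise of 4.43. Col9a3 rose by 1.09 and was low in both lines, and it was at 0.57 and not called with a pseudocount of 1 FPKM.

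Laminins and matrix glycoproteins had 10 of 28 tested members lower and 1 higher, with a median of -0.48. Bgn (ENSMUSG00000031375, chromosome X, 73483602 to 73495933) encodes the proteoglycan biglycan and was at 525, 509 and 557 FPKM in KMF, 53.2, 44.8 and 49.1 FPKM in FAK KO samples and 4.73, 4.83 and 4.45 FPKM in β-catenin ΔGSK samples. The 3 lines stood about equally far apart on the log2 scale, with FAK KO -3.44 from KMF and β-catenin ΔGSK -3.36 from FAK KO (adjusted p = 5.25e-10 and 1.10e-10 in the fit over 3 lines with limma). Spp1, the secreted phosphoprotein osteopontin, was at 900.0, 834 and 1218 FPKM in KMF, 746, 608 and 570.1 FPKM in FAK KO samples and 35.2, 38 and 32.3 FPKM in β-catenin ΔGSK samples. It fell by 4.79 (standard error 0.14, adjusted p = 3.12e-08 from limma). Lamb3, a laminin of epithelia, was at 5.67, 4.84 and 7.05 FPKM in KMF and 0.0603, 0.0962 and 0.0498 FPKM in β-catenin ΔGSK samples, and it was scarce in FAK KO too, at 0.17, 0.122 and 0.113 FPKM. Fbn1 and Fbln2, a fibrillin and a fibulin, changed by -4.10 and -3.46. The member that rose was Gpc4, a glypican that binds growth factors, from 41, 43.5 and 29.9 FPKM to 185, 182 and 191 FPKM. Fn1, which encodes fibronectin, was not called, at 70.7 ± 5.7 FPKM in KMF and 79.9 ± 18.1 FPKM in β-catenin ΔGSK samples (SD, n = 3 each).

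Matrix proteases and their inhibitors counted 3 higher and 7 lower of 19. Mmp24, a membrane metalloproteinase, rose from 1.78, 1.66 and 1.43 FPKM to 8.03, 8.1 and 7.41 FPKM. Plat, tissue plasminogen activator, rose by 1.48 and Adamts1 by 1.74. Plau, the urokinase activator, fell by 1.57. Its change was -0.95 with a pseudocount of 1 FPKM and no longer called. Adamts2, which trims procollagen, fell by 2.41.

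None of 12 tested integrin genes rose and 4 fell. Itga7, a laminin receptor, was at 4.6, 5.36 and 3.86 FPKM in KMF, 4.65, 5.39 and 4.18 FPKM in FAK KO samples and 0.211, 0.186 and 0.203 FPKM in β-catenin ΔGSK samples. Itga10, a collagen receptor, was at 31.4, 28.7 and 38.8 FPKM in KMF, 3.8, 3.8 and 4.2 FPKM in FAK KO samples and 4.02, 4.92 and 4.01 FPKM in β-catenin ΔGSK samples. Itga7 was therefore low in β-catenin ΔGSK samples only among these 3 lines, whereas Itga10 was low in FAK KO as well (β-catenin ΔGSK minus FAK KO -4.01, adjusted p = 4.74e-09, and 0.13, adjusted p = 0.385, in the fit over 3 lines with limma). Itgb5 and Itgb4 changed by -1.35 and -1.25. Itgb1, the shared subunit of many receptors, was below the fold limit at -0.76. Of 26 tested focal adhesion genes 2 rose and 2 fell, which is close to the background share. Besides Ptk2b, Fyn, a kinase of the Src family, rose from 2.58, 2.57 and 2.31 FPKM to 8.04, 7.6 and 8.6 FPKM. Tns1, which links actin to integrins, was at 59.7, 64.5 and 60.0 FPKM in KMF, 58, 65.2 and 61.6 FPKM in FAK KO samples and 3.72, 4.11 and 3.56 FPKM in β-catenin ΔGSK samples. It changed by -3.98 (standard error 0.08, adjusted p = 4.05e-09 from limma). Tln2, a talin, changed by -1.37, but unlike Tns1 it was already low in the clone (FAK KO minus KMF -1.28). From the clone to the β-catenin ΔGSK cells Tln2 differed by -0.09 (adjusted p = 0.53 in the fit over 3 lines with limma).

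**Figure D3:**
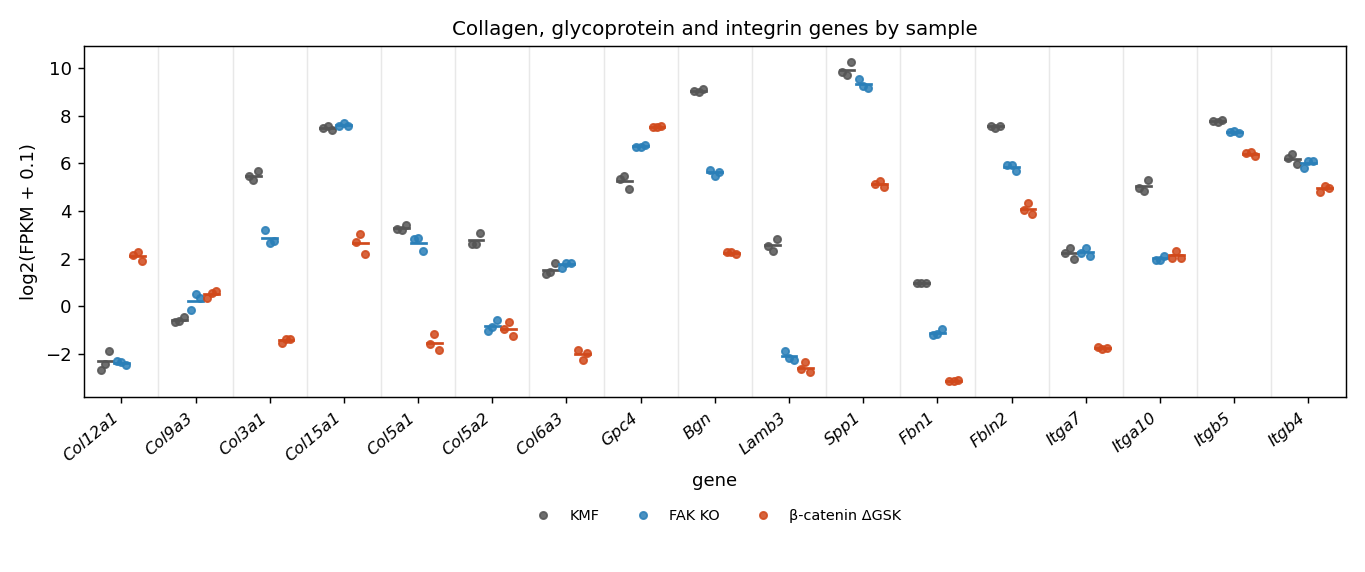
Each point is a sample, with log2(FPKM + 0.1) on the vertical axis, for the collagen, matrix glycoprotein and integrin genes called with the largest changes, and short lines are means of 3 samples in KMF, FAK KO and β-catenin ΔGSK cells. Col15a1 and Itga7 were near the KMF level in FAK KO samples and low in β-catenin ΔGSK samples, while Lamb3, Col5a2 and Itga10 were low in both.

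BMP and TGF-β genes moved in both directions, with 8 of 28 tested members higher and 7 lower against backgrounds of 5.96% and 7.17%. The ligands Bmp6, Bmp7 and Bmp2 rose, while the ligand Bmp4, described with the Wnt targets, changed by -1.78. Bmp6 was at 2.48, 2.45 and 1.28 FPKM in KMF, 0.413, 0.621 and 0.385 FPKM in FAK KO samples and 17.5, 17 and 20.1 FPKM in β-catenin ΔGSK samples. Bmp7 was at 2.06, 1.68 and 1.52 FPKM in KMF, 0.453, 0.355 and 0.642 FPKM in FAK KO samples and 13, 14.5 and 14.7 FPKM in β-catenin ΔGSK samples. Both were lowest in FAK KO, and over KMF they rose by 3.13 and 2.94 (adjusted p = 4.74e-06 and 1.93e-07 from limma). Bmp2 went from 3.13, 2.66 and 2.11 FPKM to 20.4, 24 and 15.5 FPKM. Smad9, a signal carrier of the BMP branch, rose by 3.49, and Id2 and Id3, which BMP signaling is known to induce, rose by 2.73 and 2.51. Id3 was at 22.7, 23.6 and 30.9 FPKM in KMF and 144, 148 and 146 FPKM in β-catenin ΔGSK samples. Fst, which traps activins, rose from 3.18, 2.61 and 2.63 FPKM to 23, 20.9 and 15.4 FPKM. The secreted BMP inhibitors Grem1 and Chrd fell. Grem1 was at 1.53, 1.44 and 1.86 FPKM in KMF, 0.0801, 0.0277 and 0.0344 FPKM in FAK KO samples and listed at 0 in all 3 β-catenin ΔGSK samples, so it was near 0 in the clone already. Chrd, encoding chordin, was at 23.8, 22.4 and 23.7 FPKM and 3.56, 4.81 and 4.71 FPKM. Inhbb, an activin subunit, changed by -3.29, and the TGF-β receptor genes Tgfbr2 and Tgfbr3 by -1.39 and -1.26. Tgfbr2 was at 95.9, 99.8 and 88.7 FPKM in KMF and 36.2, 36.3 and 36.1 FPKM in β-catenin ΔGSK samples.

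In the Notch pathway 6 of 12 tested genes fell and none rose, with a median of -0.89. Jag1, a ligand, was at 17.1, 17.5 and 16.7 FPKM in KMF, 21.2, 18.7 and 20.9 FPKM in FAK KO samples and 3.54, 3.75 and 3.51 FPKM in β-catenin ΔGSK samples. Hes1, a repressor induced by Notch, was at 61.6, 58.6 and 51.5 FPKM in KMF, 56.4, 48 and 55.7 FPKM in FAK KO samples and 13.3, 12 and 11.7 FPKM in β-catenin ΔGSK samples. They changed by -2.22 and -2.20 (adjusted p = 7.27e-08 and 1.63e-07 from limma), with FAK KO at or near the KMF level. The receptors Notch3 and Notch2 changed by -1.95 and -1.45, and Nrarp, a feedback inhibitor, by -2.03. Notch3 and Nrarp were about as low in FAK KO as in β-catenin ΔGSK samples, with differences of 0.24 and -0.12 (adjusted p = 0.183 and 0.52 in the fit over 3 lines with limma).

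**Figure D4:**
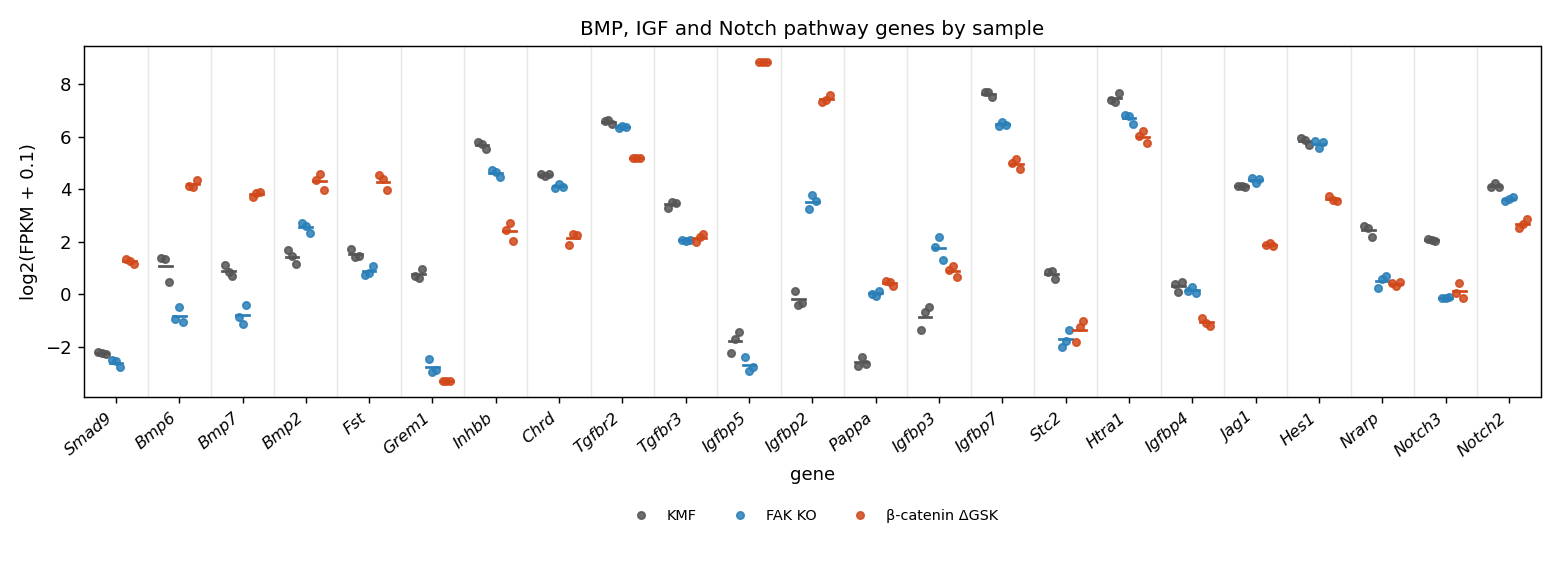
Each point is a sample, with log2(FPKM + 0.1) on the vertical axis, for the BMP, IGF and Notch pathway genes called with the largest changes, and short lines are means of 3 samples in KMF, FAK KO and β-catenin ΔGSK cells. Bmp6, Bmp7, Fst and Igfbp5 were highest in β-catenin ΔGSK samples, and Jag1 and Hes1 were lowest there.

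Ligands and outputs of the EGF receptor gave 3 higher and 2 lower of 22. Areg and Ereg, ligands of the receptor, rose by 1.14 and 1.04. The Ereg change was 0.89 without β-catenin ΔGSK replicate 1 and 0.75 with a pseudocount of 1 FPKM, where it was not called. Areg was at 7.09, 6.57 and 8.84 FPKM in KMF, 36.5, 31.6 and 32.7 FPKM in FAK KO samples and 19.8, 18.6 and 12.1 FPKM in β-catenin ΔGSK samples, so FAK KO was highest. Dusp5, an ERK phosphatase, rose from 32.4, 32.8 and 26.1 FPKM to 89.3, 87.4 and 91.1 FPKM and was as high in FAK KO, at 79.3, 95.7 and 89.4 FPKM. Egr1, an immediate early factor, and Spry1, a feedback inhibitor, changed by -2.33 and -2.08. Of 36 tested guidance genes 4 rose and 8 fell. Robo3 and Sema5a rose by 4.10 and 3.11, and Plxnb1, a semaphorin receptor, from 2.79, 2.88 and 2.78 FPKM to 14.5, 16.5 and 17 FPKM. Efna1, an ephrin, and Sema3d changed by -3.21 and -3.02, and Ephb6, a receptor without kinase activity, from 99.5, 95 and 106 FPKM to 34.3, 41.8 and 42.9 FPKM.

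Mesothelial and ovarian surface markers were expressed in part. Of 20 listed, 8 had means under 1 FPKM in both lines, among them Pax8, Muc16 and Krt7, and Calb2 was listed at 0 in all 6 samples. Of the 12 tested markers 2 rose and none fell, with a median of 0.19. Wt1, a transcription factor of mesothelium and ovarian surface, was at 98.5, 97.9 and 71.7 FPKM in KMF and 215, 230.3 and 235 FPKM in β-catenin ΔGSK samples. It rose by 1.36 (adjusted p = 1.89e-05 from limma), and Bnc1 rose by 1.41. Bnc1 was at 0.82 with a pseudocount of 1 FPKM, which leaves Wt1 as the marker called. The summed level of the 20 listed markers was 822 to 908 FPKM in KMF and 1286 to 1416 FPKM in β-catenin ΔGSK samples, and most of this difference came from Krt19, with means of 377 and 644 FPKM, Wt1, and Gata4, with means of 80.2 and 140.4 FPKM. Neither Krt19 nor Gata4 reached the fold limit. Msln, which encodes mesothelin, was not called, at 66.2 ± 5.36 and 47.8 ± 6.14 FPKM (SD, n = 3 each). The keratin genes Krt8, Krt18 and Krt19 were abundant and not called, with log2 differences of -0.78, -0.70 and 0.77, while the epithelial adhesion genes Cdh1 and Epcam had means under 1 FPKM in both lines. Of 15 tested epithelial genes 3 rose and 3 fell. Cgn, the tight junction protein cingulin, rose from 2.5, 2.2 and 2.25 FPKM to 12.3, 14.8 and 16.7 FPKM, and the claudin gene Cldn3 by 1.14. The Cldn3 change was 0.87 without KMF replicate 3 and 0.99 without β-catenin ΔGSK replicate 3, where it was not called. Krt14, a basal keratin, went from 53, 46.7 and 60.6 FPKM to 5.35, 6.66 and 3.56 FPKM, and the desmocollin gene Dsc2 fell by 2.80.

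Of 15 tested mesenchymal and EMT genes 5 fell and none rose. Snai1, a repressor of epithelial genes, was at 13.8, 11.8 and 8.15 FPKM in KMF, 6.15, 7.57 and 6.61 FPKM in FAK KO samples and 1.52, 1.8 and 1.34 FPKM in β-catenin ΔGSK samples. It fell by 2.75 (standard error 0.19, adjusted p = 3.88e-06 from limma). Pdgfra, a growth factor receptor of mesenchyme, and S100a4 changed by -3.32 and -2.53. Lox, which crosslinks collagen, and Tgfb1 changed by -1.47 and -1.35. Vim and Zeb1 were not called, with differences of -0.63 and -0.09. Among 15 contractile genes 4 fell and Csrp2 rose, and its relative Csrp1 was among the 4, at 128, 123 and 128 FPKM in KMF and 55.3, 58.3 and 67.1 FPKM in β-catenin ΔGSK samples. Csrp1 was at -0.71 with chromosome centring and not called there. In FAK KO samples it was lower still, at 40, 45.3 and 42.4 FPKM. β-catenin ΔGSK cells thus lay above the clone in Csrp1, by 0.50 (adjusted p = 3.2e-04 in the fit over 3 lines with limma). Ctgf, a matricellular growth factor, and Mylk, myosin light chain kinase, changed by -2.16 and -2.80.

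Leukocyte markers were low, while some genes on the endothelial and fibroblast lists were expressed. Of 12 leukocyte markers 11 were in the table and Cd68 alone was tested. It fell by 1.20, and its change was -0.82 with a pseudocount of 1 FPKM and not called. The sum over the list was 3.49 to 4.3 FPKM in KMF and 1.27 to 2.37 FPKM in β-catenin ΔGSK samples. Ptprc, the pan-leukocyte antigen, had means under 1 FPKM in both lines. The endothelial list summed to 54.4 to 56 FPKM in KMF, 32 to 33.5 FPKM in FAK KO samples and 65.5 to 71 FPKM in β-catenin ΔGSK samples. Nearly all of this came from Esam, an adhesion molecule of endothelial junctions, and Tek, the angiopoietin receptor, whereas its other 8 genes, Cdh5 and Pecam1 among them, had means under 1 FPKM in both compared lines. Esam rose from 25, 24.6 and 26 FPKM to 58.8, 63.2 and 63.5 FPKM, and Tek went from 28.7, 28.8 and 28.7 FPKM to 6.29, 6.72 and 7.25 FPKM. They changed in opposite directions, by 1.29 and -2.08. The fibroblast list summed to 132 to 160.0 FPKM in KMF, 147 to 188 FPKM in FAK KO samples and 50.8 to 66.9 FPKM in β-catenin ΔGSK samples. Of its 10 genes 5 were tested and 4 fell, Col3a1, Pdgfra, Col1a1 and Pdpn, of which the collagen genes and Pdgfra are also members of lists described above. Dcn, encoding decorin, was not called, at 33.1 ± 5.17 and 38.6 ± 7.75 FPKM (SD, n = 3 each), and Lum was listed at 0 in all 6 samples. Whether other cells had a part in the matrix result was not tested.

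Aldehyde dehydrogenases, the enzymes behind a common stem cell assay, gave 4 higher and 2 lower of 17. Aldh1l1, an enzyme of folate metabolism, was at 0.288, 0.30 and 0.292 FPKM in KMF, 5.12, 5.47 and 5.14 FPKM in FAK KO samples and 2.66, 3.68 and 3.48 FPKM in β-catenin ΔGSK samples. Aldh4a1, Aldh5a1 and Aldh1a2 rose by 1.46, 1.10 and 1.09. The last 2 lost their calls with a pseudocount of 1 FPKM, with Aldh1a2 at 0.70 and Aldh5a1 at 0.85. Aldh1a2 was also not called without KMF replicate 1, at 0.95, nor Aldh5a1 with chromosome centring, at 0.95. Aldh1a7 was at 36.3, 37.4 and 38.1 FPKM in KMF and 3.53, 3.77 and 3.77 FPKM in β-catenin ΔGSK samples, and Aldh3a1 at 225, 228 and 232 FPKM and 68.3, 91.5 and 58 FPKM. They changed by -3.30 and -1.68 and were near the KMF level in FAK KO, with means of 31.9 FPKM for Aldh1a7 and 231 FPKM for Aldh3a1. Aldh1a7 resembles Aldh1a1, so its value is uncertain. Aldh1a1 itself was not called, at 103 ± 1.88 FPKM in KMF and 80.8 ± 5.08 FPKM in β-catenin ΔGSK samples (SD, n = 3 each). Of 14 tested pluripotency and stem cell genes 2 rose, Id2 and Id3, and 3 fell. Klf4, a reprogramming factor, was at 207, 213 and 169 FPKM in KMF and 64.7, 71.2 and 65.8 FPKM in β-catenin ΔGSK samples, and Nes, which encodes nestin, fell by 1.68. Sox2 and Pou5f1 were listed at 0 in all 6 samples.

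Genes of drug transport and glutathione counted 2 higher and 5 lower of 33. Abcb1a, the efflux pump P-glycoprotein, rose from 0.399, 0.638 and 0.431 FPKM to 2.79, 2.73 and 2.35 FPKM and was higher still in FAK KO, at 4.83, 5.14 and 4.5 FPKM. Abcc3, a related pump, rose by 1.39, and by 0.77 with a pseudocount of 1 FPKM, where it was not called. Gsto1, a glutathione transferase, was at 468, 470.4 and 465 FPKM in KMF, 453, 463 and 483 FPKM in FAK KO samples and 123, 118 and 124 FPKM in β-catenin ΔGSK samples. Gstt1, Gsta2 and Gsta3 changed by -3.76, -1.77 and -1.61, and the Gsta genes are similar copies whose values are uncertain. Mt2, a metallothionein, was at 7.24, 7.15 and 21.3 FPKM in KMF, where replicate 3 stood apart, and 3.11, 4.32 and 3.42 FPKM in β-catenin ΔGSK samples. Without that replicate its change was -0.99 and no longer called. The copper transporter Slc31a1, which takes up platinum drugs, was not called, at 11.8 ± 1.08 and 15.8 ± 1.65 FPKM (SD, n = 3 each).

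Of 14 tested chemokines and cytokines 7 fell and none rose, and the median was -1.01. Cxcl1, a neutrophil attractant, was at 36, 38.8 and 48.7 FPKM in KMF, 58.6, 57.8 and 53.4 FPKM in FAK KO samples and 8.5, 9.63 and 8.24 FPKM in β-catenin ΔGSK samples. Cxcl5 went from 3.18, 5.58 and 3.9 FPKM to 0, 0.0476 and 0.0205 FPKM, and Cxcl12, a ligand of Cxcr4, from 22.1, 19.2 and 30.9 FPKM to 3.49, 3.61 and 1.46 FPKM. Ccl2, a monocyte attractant, and Il18 changed by -2.04 and -1.46. Interferon-stimulated genes had 3 of 22 members higher and none lower, while their median was -0.27. At any fold 6 were higher (27.3% against a background of 25.1%) and 10 lower (45.5% against 31.8%). Usp18, which removes ISG15, rose from 0.214, 0.223 and 0.32 FPKM to 1.69, 1.94 and 2.15 FPKM, and Ifit2 and Cmpk2 rose by 1.84 and 1.13 at similarly low levels. Both calls were lost with a pseudocount of 1 FPKM, at 0.75 and 0.82. Cmpk2 was at 0.98 without KMF replicate 3, where it was not called. In MHC class I and antigen processing 2 of 18 rose, H2-Q1 and H2-Q4, and 3 fell. Tap2, a peptide transporter, was at 21.7, 22.7 and 21.6 FPKM in KMF and 6.46, 8.9 and 8.57 FPKM in β-catenin ΔGSK samples, and Psmb8 and H2-M3 changed by -1.88 and -1.19. Psmb8 was at -0.91 with a pseudocount of 1 FPKM and H2-M3 at -0.93 with chromosome centring, and neither was called there. Psmb8 was already low in FAK KO samples, with means of 0.46 FPKM there and 0.355 FPKM in β-catenin ΔGSK samples. B2m was not called, with a difference of -0.30.

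Few proliferation genes passed the fold limit. Of 46 tested cell cycle genes 2 rose and none fell, and the median was 0.16. At any fold 18 of these genes were higher (39.1% against a background of 25.1%) and 6 lower (13% against 31.8%). Ccnd2, cyclin D2, was at 63, 61.7 and 64.7 FPKM in KMF, 117, 113 and 111 FPKM in FAK KO samples and 292, 273 and 234 FPKM in β-catenin ΔGSK samples, and it rose by 2.07 (adjusted p = 2.24e-07 from limma). Cdkn1c, the cell cycle inhibitor p57, rose from 0.0178, 0.0556 and 0.0147 FPKM to 1.26, 1.35 and 1.09 FPKM. Mki67 and Top2a, markers of cycling cells, were not called, with differences of 0.10 and 0.08. No DNA replication gene of 44 was called. At any fold 16 were lower (36.4% of those tested against 31.8%) and 1 was higher (2.27% against 25.1%), and the median was -0.20. Of 52 repair genes 1 rose, Rnf144b, a ubiquitin ligase on that list that responds to p53. No gene of ribosome biogenesis was called of 30 tested. Of 25 tested apoptosis regulators 1 rose (4%) and 2 fell (8%), near the background shares. Bcl2l11, the death activator Bim, rose from 5.43, 5.58 and 5.86 FPKM to 19.2, 18.4 and 21 FPKM. Bok and Bmf, of the same family, changed by -1.77 and -1.67.

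A set of genes that was measured by qRT-PCR in FAK KO cells and in FAK KO cells with FAK restored, not in the lines compared here, held Recql4, Spc24, Pkmyt1, Dscc1, Rnf144b, Wnt4, Klf5, Amigo2, Fos and Ndufa4l2. Against KMF, Wnt4 and Rnf144b rose and Ndufa4l2 fell. Rnf144b was at 2.82, 3.12 and 2.75 FPKM in KMF, 0.835, 0.696 and 0.656 FPKM in FAK KO samples and 7.47, 7.2 and 7.51 FPKM in β-catenin ΔGSK samples. Ndufa4l2, a mitochondrial protein induced in hypoxia, was at 419.7, 341 and 486 FPKM in KMF, 20.7, 19.4 and 7.26 FPKM in FAK KO samples and 50.8, 56.5 and 21.9 FPKM in β-catenin ΔGSK samples. Klf5, a transcription factor, was at 3.64, 3.73 and 3.21 FPKM in KMF, 0.772, 0.802 and 0.685 FPKM in FAK KO samples and 2.64, 3.16 and 2.78 FPKM in β-catenin ΔGSK samples. It was thus close to KMF, with a difference of -0.29 (adjusted p = 0.0488 from limma). Fos, an immediate early factor, was higher by 0.87 (adjusted p = 3.76e-04 from limma), short of the fold limit. Recql4, Dscc1 and Amigo2 overlapped between the lines, with differences of -0.25, -0.08 and 0.02. Spc24, a kinetochore gene, and Pkmyt1, a kinase that holds back mitosis, differed by 0.17 and -0.57.

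In hypoxia and glycolysis 6 of 30 tested genes rose and 4 fell. The genes that rose were Pfkp, Hk2, Aldoc, Slc2a3 and Gapdh, which take up or break down glucose, and Ldhb. Ldhb, a lactate dehydrogenase subunit that interconverts lactate and pyruvate, was at 27.6, 30.5 and 26.5 FPKM in KMF, 130.4, 139.7 and 136 FPKM in FAK KO samples and 239, 249 and 319 FPKM in β-catenin ΔGSK samples. It rose by 3.24 (adjusted p = 8.59e-08 from limma). Hk2, hexokinase 2, rose from 11.5, 11.9 and 11.1 FPKM to 31.3, 31.6 and 26.8 FPKM, and Pfkp, Aldoc and Slc2a3 by 1.57, 1.22 and 1.19. Gapdh rose by 1.03, and it was not called with chromosome centring (0.92), without KMF replicate 2 (0.96) or without β-catenin ΔGSK replicate 2 (0.93). Car9, Egln3, Slc16a3 and Bnip3, known as targets of the hypoxia-inducible factor as Hk2 and Slc2a3 are, changed by -1.54, -1.34, -1.10 and -1.08. In FAK KO samples Bnip3 and Slc16a3 were lower still, at 7.49, 6.9 and 4.43 FPKM and 3.98, 3.44 and 1.85 FPKM, so that β-catenin ΔGSK cells lay above the clone, by 1.49 and 1.65 (adjusted p = 9.50e-04 and 0.00146 in the fit over 3 lines with limma). Egln3 and Car9 differed from FAK KO by 0.06 and -0.06. Car9, the weakest of the 4, was at -0.72 and not called with a pseudocount of 1 FPKM. In all 4 genes replicate 3 had the highest KMF value and the lowest β-catenin ΔGSK value. The same held for Pfkp, Aldoc and Gapdh, which rose, but not for Hk2, Slc2a3 and Ldhb. Bnip3, a mitophagy receptor, was at 30.0, 30.4 and 55.4 FPKM in KMF and 21.4, 19.6 and 12.5 FPKM in β-catenin ΔGSK samples. Its change was -0.79 without KMF replicate 3 and -0.85 without β-catenin ΔGSK replicate 3, and -0.98 with chromosome centring, and it was called in none of these. Slc16a3, a lactate exporter, was at 19.5, 17.6 and 24.9 FPKM in KMF and 10.9, 13.8 and 5.62 FPKM in β-catenin ΔGSK samples, with -0.96 and -0.73 without the same libraries. Egln3 was at -0.95 without β-catenin ΔGSK replicate 3.

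Oxidative phosphorylation genes were shifted upward by small amounts. Of 31 genes, cytochrome c among them, 25 were higher at any fold (80.6% of those tested against a background of 25.1%) and 1 was lower, and the median was 0.58. The fold limit left Cycs, encoding cytochrome c, and Ndufa4. Ndufa4 was at 246, 243 and 267 FPKM in KMF, 448, 415 and 431 FPKM in FAK KO samples and 511, 522 and 588 FPKM in β-catenin ΔGSK samples. With chromosome centring both were at 0.99 and not called. Cycs rose by 1.10, and by 0.93 without β-catenin ΔGSK replicate 1, where it was not called. Of 29 sterol and fatty acid genes 1 rose and 2 fell. Those that fell, Acss2, which makes acetyl-CoA from acetate, and Scd1, a fatty acid desaturase, changed by -1.40 and -1.07.

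**Figure D5:**
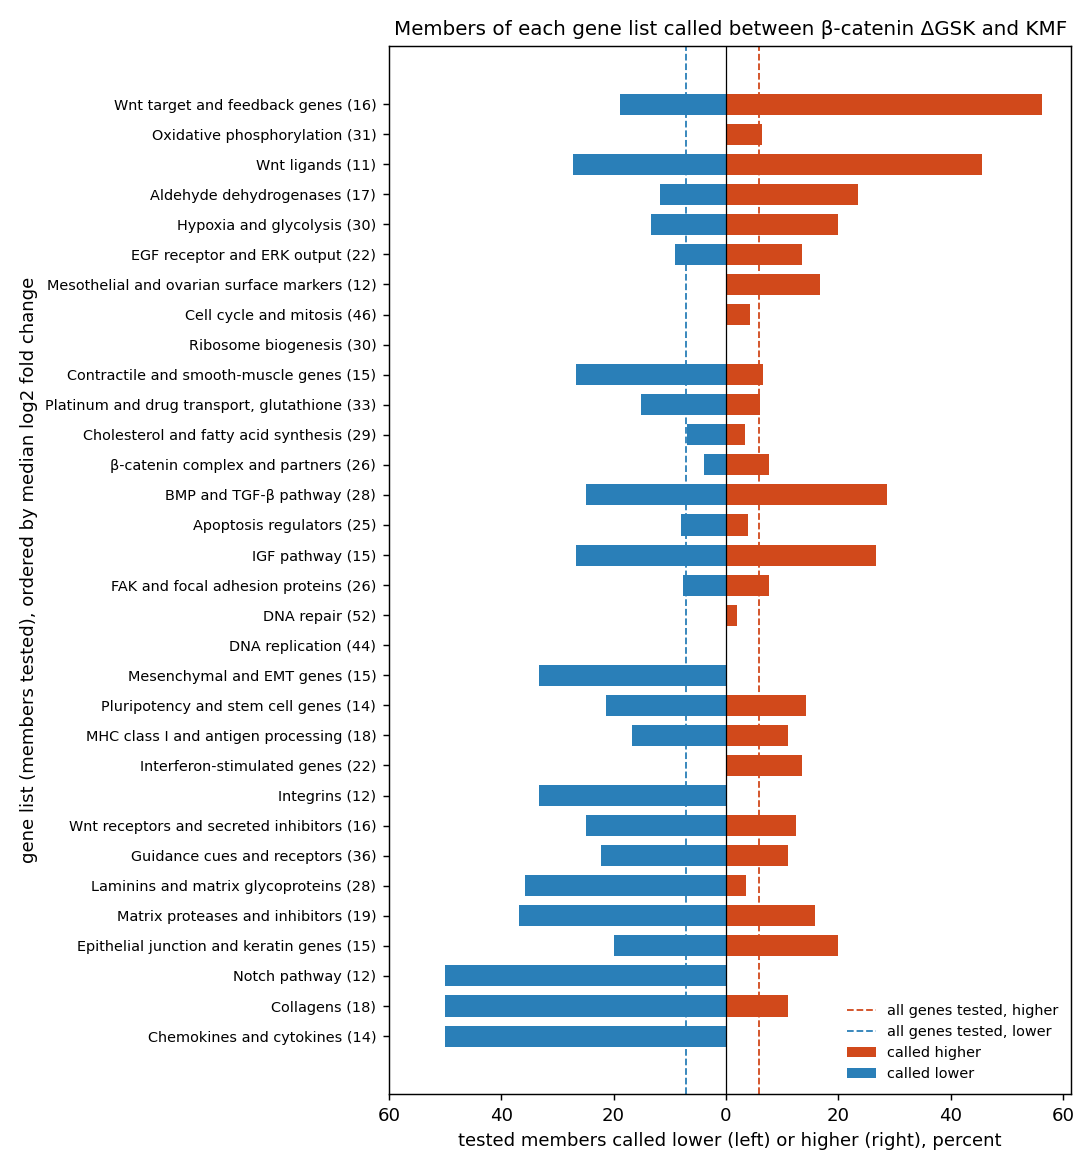
Bars show the percent of tested members of each gene list called higher (orange, to the right) or lower (blue, to the left) in β-catenin ΔGSK than in KMF cells, with the number tested in parentheses and lists ordered by median log2 fold change. Dashed lines mark 5.96% and 7.17% of all tested genes, and Wnt target genes reach 56.2% on the right while chemokines, collagens and Notch genes reach 50% on the left. The fibroblast, leukocyte and endothelial marker lists and the study's own list are not drawn. Fibroblast markers had 80% of 5 tested genes lower, and leukocyte markers 100% of 1.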

How the data were processed

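Messenger RNA of tumorspheres was measured by poly(A)-selected, paired-end sequencing, as described by the authors. The authors deposited a table of FPKM for 35275 genes with gene length. Sources for its making differ. The submitters' processing notes name CASAVA 1.8, STAR 2.5, DESeq2 and mm10, while the methods of the study name TopHat2 and DESeq2, and the counting tool is not given in the sources used here. The files' coordinates are those of mm10, since 99.84% of 34490 gene IDs found in GENCODE M21 overlap their position there. Strand in counting is not stated. The depth could be read from the values, because FPKM times length divided by the smallest step of a library gave whole fragments (within 0.01) for 100% of values. The methods of the study describe the KMF samples as independent RNA isolates from different passages and those of the other lines as replicate RNA samples. No source used here says that the latter were separate cultures, so p-values measure the spread between these samples, which may be technical.

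The FPKM were used as deposited. Genes with a mean FPKM above 1 in either line were tested with limma 3.58.1 (R 4.3.3, eBayes with trend) on log2(FPKM + 0.1) of the 3 β-catenin ΔGSK and 3 KMF samples, after the filter the study states, and p-values were adjusted by Benjamini-Hochberg over all genes tested. The same fit over the 3 lines with FAK KO gave the comparisons with the clone. For values of a single gene, 3 samples against 3 cannot go below p = 0.10 in an exact permutation test, so no such test was run. Genes were named by a rule, the 12 largest called changes in each direction among protein-coding genes without overlap, the genes the study centres on or measured by qRT-PCR, and up to 5 called members per direction of each of 35 gene lists, with defining members that were not called. Some genes the rule names are not reported here. Members of lists beyond that limit, such as Notum and Gapdh, and genes printed at 0 were chosen after their values were seen. The comparison, the lists and the members were chosen with earlier results of these data known. The script for limma was tested on simulated data. Promoters and the Ctnnb1 transcript came from RefSeq and GENCODE M21 tables read with Python 3.11.15. Of the list members, Tns2 and Adgre1 were not found by symbol. Alternatives were other pseudocounts, filters, scaling and fold limits, no trend, all 5 lines in 1 fit, a replicate block, limma-voom on recovered fragments, and each sample left out. Centring each chromosome was chosen after seeing the data.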

Additional observations from a re-analysis of the deposited data

How the results depend on the processing

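The counts of 709 and 853 moved most with what was tested and with the fold limit. Without a filter on FPKM 1092 genes were higher and 1308 lower among 21527 tested, and with a mean FPKM above 5 the counts were 401 and 514 among 8905. A log2 fold limit of 0.5 gave 1599 and 2127, and none gave 2989 and 3787. A pseudocount of 1 FPKM gave 497 and 627. Leaving out 1 sample gave 702 to 723 higher and 860 to 880 lower genes. Median-of-ratios scaling gave 777 and 784, so the share of rises among calls went from 45.4% to 49.8%, and it moved the median of all genes from -0.05 to 0.01. With limma-voom on recovered fragments 733 and 889 genes were called, of which 708 and 853 were among the main calls. No label pairs the samples by replicate number, and same-numbered samples deviated with correlations of -0.01, 0 and -0.18. With 3 samples a line these correlations cannot show whether samples shared a day or culture. With the replicate block 711 and 856 genes were called, including all 709 and 853. No sample of either line correlated best with its own number. With each chromosome centred, 752 and 789 were called, of which 662 and 736 were among the main calls.

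Of 227 named genes, 35 of them named after their values were seen, all kept direction and call under the block, scaling, limma-voom, no trend, no filter, a pseudocount of 0.01 and 1 fit of 5 lines. Calls were lost for 18 genes with a pseudocount of 1, among them Psmb8 and Ifit2 with changes well past the fold limit, and for 9 with chromosome centring, and for 1 to 7 genes without a sample. The sign changed for genes with small differences, short of the fold limit. Dscc1, Axin1 and Top2a were at 0.04, 0.02 and -0.06 with chromosome centring. Of these, Axin1 differed by -0.24 in the main fit (adjusted p = 0.0129 from limma), a difference that centring removed. As samples were left out, Fn1 ranged from 0.00 to 0.33 and Top2a from -0.01 to 0.13, and Amigo2 ranged from -0.06 to 0.12, at 0.00 without KMF replicate 2 and -0.06 without β-catenin ΔGSK replicate 1. The median of the Wnt ligands went from 0.58 to -0.10 without a filter on FPKM, and that of drug transport and glutathione genes from 0.05 to -0.25 with a mean FPKM above 5. With 3 samples a line, changes near 1 on the log2 scale and genes near 1 FPKM are the least certain.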

Other observations

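Genes of the same chromosome shared small shifts. The median log2 fold change of β-catenin ΔGSK over KMF ran from -0.34 for 568 tested genes of chromosome 3 to 0.22 for 442 genes of chromosome 19. On chromosome 3 the share of genes called was 4.58% higher and 10% lower, and on chromosome 19 it was 8.6% and 3.85%, against 5.96% and 7.17% of all tested genes. The same medians for FAK KO over KMF, which share the KMF samples, were -0.22 and 0.25. On chromosome 5 the medians were -0.14 for β-catenin ΔGSK and 0.16 for FAK KO over KMF. Leaving out 1 sample kept chromosome 3 between -0.36 and -0.31 and chromosome 19 between 0.21 and 0.23. Whether copy number had a part was not tested.

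Called genes lay next to each other more often than tested genes as a whole. Of 709 genes that rose, 163 (23%) had a tested neighbour on the chromosome that also rose, against 11.4% of all tested genes with such a neighbour, and of 853 that fell 278 (32.6%) had a neighbour that fell, against 13.5%. Besides Igfbp2 with Igfbp5 and Col3a1 with Col5a2, the pairs included Stra6 with Islr (8.31 and 3.27), Robo4 with Robo3 (4.49 and 4.10), Mgp with Arhgdib (-6.40 and -4.56), Tnnt2 with Pkp1 (-6.09 and -5.05) and the long noncoding RNA Fendrr with Foxf1 (-3.78 and -4.21). The apolipoprotein genes Apoc2, Apoc4 and Apoc1 lie side by side and rose by 4.39, 5.88 and 3.06, and Apoc2 and Apoc4 overlap, so their fragments may not be separable. These pairs were chosen after their values were seen, and similar copies and overlapping genes are part of the counts.

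The study's own list of 135 genes tied to FAK and β-catenin was found complete in the table. In β-catenin ΔGSK against KMF cells 42 of its genes rose and 6 fell, with a median of 0.39, and at any fold 74 were higher and 18 lower. The list was chosen with β-catenin ΔGSK samples of this series, so these counts are not independent evidence of its direction.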
